A study of Mus musculus with 4 samples.

Results

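The fatty acid binding proteins Fabp3, Fabp5 and Fabp7 were examined in the cerebellum of mice that lack 1 functional copy of Kdm3b, a histone demethylase. The 3 genes were selected on their level in the 2 genotypes compared here, so that their own difference between genotypes is given as a description, with no p-value, and nothing is read from whether one of them passed the threshold of the fit over all genes. They are 3 of the 24532 genes in the tables, 3 of the 13652 genes averaging at least 1 TPM that entered the test, and 3 of the 15 genes listed for the family of intracellular lipid binding proteins. Each was matched by its NCBI gene identifier and had a value in all 4 libraries.

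RNA had been sequenced from the granule-cell-enriched (GCE) part of the vermis, cut by hand from vibratome slices of the cerebellum. A library was made from each of 4 mice, 2 WT and 2 Kdm3b+/-. All of them were adult males, and the WT mice were littermates of Kdm3b+/- mice. The mutant line came from an embryonic stem cell line with a gene trap vector in an intron of Kdm3b and was crossed back to the C57Bl/6N strain and then, before the experiments, several times to C57Bl/6J. The trap is present in all cells of the animal from the start of development, the exons before it can still be transcribed, and the line goes back to 1 targeted stem cell line. The level listed for Kdm3b therefore need not be that of whole mRNA. Kdm3b was listed at 9.10 and 11 TPM in the WT mice and at 8.30 and 7.90 TPM in the Kdm3b+/- mice (log2 difference -0.27, SE 0.17, adjusted p = 0.424 in the limma fit over all genes).

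The libraries held between 4.92 and 6.69 gigabases of aligned sequence. Of the 13652 genes tested, 63 (0.461%) were called different between genotypes, 16 of them (0.117%) with a higher level and 47 with a lower level in Kdm3b+/- mice. With median-ratio scaling between libraries these were 29 and 40 genes, and with a correction for transcript length and GC content 7 and 41. A gene was called at an adjusted p under 0.05 and a fold over 1.2. Of the 3 genes selected on this contrast, Fabp7 was among the 63 and Fabp3 and Fabp5 were not. With median-ratio scaling Fabp5 was called as well. With the length and GC correction, or without the minimum of 1 TPM, none of the 3 was called. The groups did not overlap for 6999 genes (51.3%), both Kdm3b+/- mice lay above both WT mice for 2626 genes (19.2%), and both lay below for 4373 (32%). The tissue carried markers of granule cells, such as Gabra6, at 984 and 1097 TPM in WT mice and 1199.7 and 1032 TPM in Kdm3b+/- mice, and also those of oligodendrocytes, such as Mbp, with a mean of 11753 TPM over the 4 libraries.

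Fatty acids are poorly soluble in water, and fatty acid binding proteins are small, abundant cytosolic proteins that hold a long-chain fatty acid inside a barrel of beta strands and carry it between membranes, enzymes and the nucleus. The brain uses mainly 3 of them. Fabp3, the heart type, is known from neurons of the mature brain, Fabp5, the epidermal type, from neurons and glia, and Fabp7, the brain type, from radial glia, astrocytes and the Bergmann glia of the cerebellum. Polyunsaturated fatty acids are typical ligands, and Fabp5 can hand ligands to the nuclear receptor PPARdelta.

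The 3 genes lie on different chromosomes and have the same layout of 4 exons on the forward strand. In the tables Fabp3 (identifier 14077) was placed at chromosome 4, 130308778 to 130315463, Fabp5 (identifier 16592) at chromosome 3, 10012585 to 10016610, and Fabp7 (identifier 12140) at chromosome 10, 57784923 to 57788450, positions that match GRCm38. The GENCODE coding sequences of 402, 408 and 399 bases encode 133, 135 and 132 residues. Fabp3 and Fabp7 were the closest pair, with 66.7% of aligned coding bases identical, against 55.7% for Fabp3 and Fabp5 and 55.4% for Fabp5 and Fabp7. A stretch of 90 coding bases near the start of the 3 genes is shown because it gives both the likeness of the family and the differences that let reads be told apart. It starts at coding base 24 in Fabp3, 30 in Fabp5 and 24 in Fabp7, it is written in the sense of the mRNA, and capitals mark the 50 bases that are identical in all 3.
Fabp3: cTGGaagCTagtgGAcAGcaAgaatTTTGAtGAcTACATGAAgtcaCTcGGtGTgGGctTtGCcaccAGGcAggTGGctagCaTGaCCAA
Fabp5: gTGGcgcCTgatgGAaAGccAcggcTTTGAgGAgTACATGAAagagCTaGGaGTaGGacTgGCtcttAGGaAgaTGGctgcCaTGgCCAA
Fabp7: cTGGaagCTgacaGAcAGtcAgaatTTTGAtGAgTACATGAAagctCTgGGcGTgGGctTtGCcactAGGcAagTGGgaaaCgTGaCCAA
The longest run of identical coding bases was 20, between Fabp3 and Fabp7, and the runs for Fabp3 and Fabp5 and for Fabp5 and Fabp7 were 10 and 13 bases long. Reads can nevertheless be shared with other copies. Of the words of 50 bases in the Fabp7 transcript none was found in a transcript of another gene, whereas 21.1% of those of Fabp5 occurred in 5 pseudogenes and 37.3% of those of Fabp3 in a pseudogene, in the neighbour Zcchc17 or in Gm10570. The levels of Fabp3 and Fabp5 therefore depend on how the authors' counting assigned such reads.

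Fabp3 was the most abundant of the 3 genes. Its level was 269 and 276 TPM in the WT mice and 428 and 366 TPM in the Kdm3b+/- mice. The WT mice were nearly equal, and the lower Kdm3b+/- mouse was at 1.33 times the level of the higher WT mouse. Mean levels were 273 ± 4.63 TPM in WT and 397 ± 44.0 TPM in Kdm3b+/- mice (SD, n = 2), a ratio of 1.46 and a log2 difference of 0.54 (SE 0.13) on the log2(TPM + 1) scale. It ranked 520 of the tested genes by level and 282 by log2 difference. The mean read depth over its exons was 597 and 682 in WT and 1134 and 1119 in Kdm3b+/- mice.

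Fabp5 was intermediate in level and in difference. It was listed at 66.3 and 47.1 TPM in the WT mice and at 107 and 128 TPM in the Kdm3b+/- mice. The WT mice differed by 1.41 times from each other, more than those of the other 2 genes, and the groups did not overlap. Mean levels were 56.7 ± 13.6 TPM in WT and 118 ± 14.5 TPM in Kdm3b+/- mice (SD, n = 2), a ratio of 2.08 and a log2 difference of 1.06 (SE 0.18), which ranked 32. Its read depth was 147 and 116 in WT and 284 and 390 in Kdm3b+/- mice.

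Fabp7 had the lowest level and the largest difference of the 3. Its level was 16.5 and 16.2 TPM in the WT mice and 40.5 and 56.4 TPM in the Kdm3b+/- mice. Even the lower Kdm3b+/- mouse was at 2.45 times the level of the higher WT mouse, while the 2 Kdm3b+/- mice differed by 1.39 times from each other. Mean levels were 16.3 ± 0.235 TPM in WT and 48.5 ± 11.2 TPM in Kdm3b+/- mice (SD, n = 2), a ratio of 2.97 and a log2 difference of 1.49 (SE 0.18), which ranked 12. The log2 difference was 1.51 without WT mouse 1 and 1.48 without WT mouse 2, and in neither fit did Fabp7 pass the threshold. Its read depth was lowest, at 36.6 and 40.0 in WT and 107 and 173 in Kdm3b+/- mice.

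**Figure D1:**
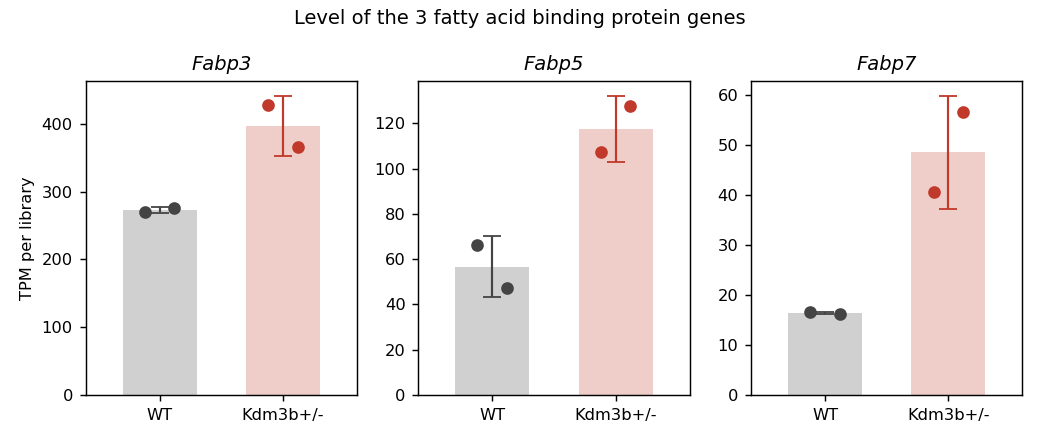
Level of Fabp3, Fabp5 and Fabp7 in TPM (vertical axis, starting at 0, with a scale of its own for each gene) by genotype. Points are single libraries, bars are means and error bars are the SD of 2 mice; in each gene both Kdm3b+/- points lie above both WT points, as for Fabp7 with 40.5 and 56.4 against 16.5 and 16.2 TPM.

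The order of the levels was Fabp3, Fabp5, Fabp7 in all 4 libraries, and the ranges of the 3 genes did not overlap in either genotype. Their sum was 352 and 339 TPM in the WT mice and 576 and 550 TPM in the Kdm3b+/- mice. Its make-up differed as well. Fabp7 held 4.69% and 4.77% of the sum in WT and 7.03% and 10.3% in Kdm3b+/- mice, and Fabp3 held 76.5% and 81.4% in WT and 74.3% and 66.5% in Kdm3b+/- mice. The share of Fabp5 overlapped between genotypes, with 18.8% and 13.9% in WT and 18.6% and 23.2% in Kdm3b+/- mice. Within the Kdm3b+/- group the mice were ordered differently by gene, since mouse 1 had the higher Fabp3 and mouse 2 the higher Fabp5 and Fabp7.

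**Figure D2:**
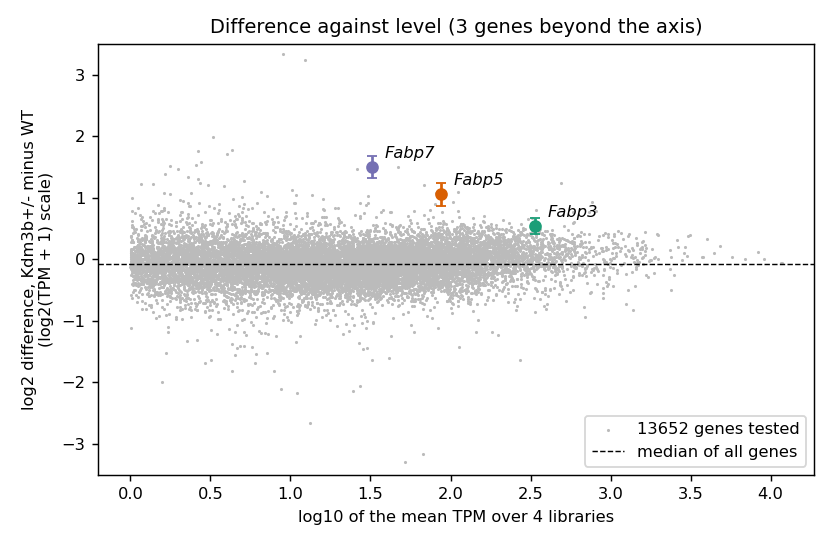
Log2 difference between genotypes (vertical axis, Kdm3b+/- minus WT, log2(TPM + 1) scale) against the log10 of the mean TPM (horizontal axis) for the 13652 genes tested, each a grey dot, with the median of all genes as a dashed line at -0.07. Coloured points with SE bars are Fabp3, Fabp5 and Fabp7, at 0.54, 1.06 and 1.49; 3 genes lie beyond the vertical axis.

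The difference between genotypes varied with transcript length over all genes, and the 3 genes are short. Their longest protein-coding GENCODE transcripts measure 823 bases for Fabp3, 987 for Fabp5 and 880 for Fabp7, whose exons and coding sequence above are those of a transcript of 804 bases. This puts all 3 in the shortest of 10 equal groups of the tested genes (54 to 1150 bases, 1356 genes). In that group the median log2 difference was 0.22, against -0.21 in the group from 3544 to 4184 bases, and both Kdm3b+/- mice lay above both WT mice for 50.6% of its genes, against 19.2% of all genes. The share called higher in that group was 0.590%. Among these short genes the log2 differences of Fabp7, Fabp5 and Fabp3 ranked 7, 16 and 133. After a correction of the libraries for length and base composition, the log2 difference of Fabp3 became 0.25 (SE 0.11). Those of Fabp5 and Fabp7 became 0.78 (SE 0.15) and 1.2 (SE 0.21), and none of the 3 genes was called.

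**Figure D3:**
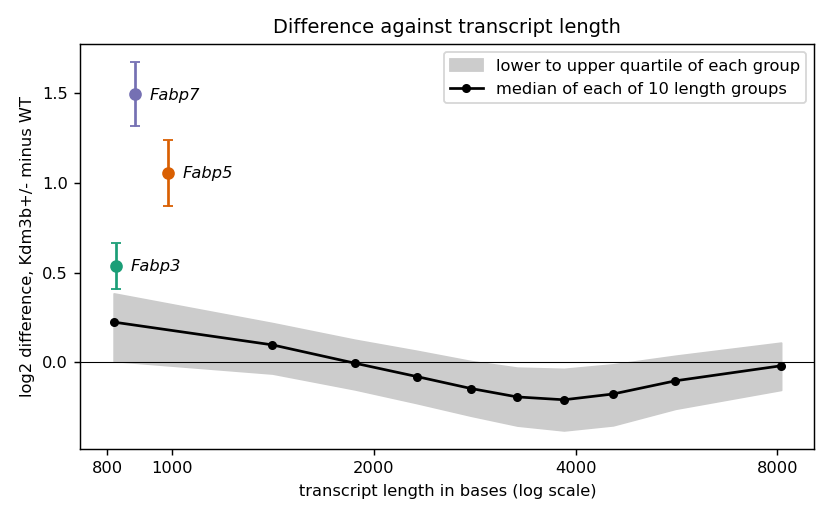
Log2 difference between genotypes (vertical axis, Kdm3b+/- minus WT) against transcript length in bases (horizontal log axis). The black line joins the medians of 10 equal groups of genes by length, the grey band runs from the lower to the upper quartile of each group, and coloured points with SE bars are the 3 genes, which all lie above the band at the short end, where the median is 0.22.

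The rest of the family was absent or near the lower limit of the tables. Fabp1 of liver, Fabp2 of intestine, Fabp9 of testis, Fabp12 and Crabp1, a retinoic acid binding protein, were listed at 0 in all 4 libraries. Fabp4, the adipocyte type, was listed at 0 in 3 libraries and at 0.309 TPM in Kdm3b+/- mouse 2. The myelin protein gene Pmp2 was listed at 0 in both WT mice and at 0.112 and 0.0968 TPM in the Kdm3b+/- mice, and the bile acid binding Fabp6 was at most 0.0994 TPM. Thus no fatty acid binding protein besides the 3 reached a mean of 1 TPM.

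Other members of the family, which bind retinoids, were low too. Crabp2 was listed at 0.294 and 0.318 TPM in WT and 0.593 and 0.478 TPM in Kdm3b+/- mice. Rbp7 was listed at 0.307 and 0.819 TPM in WT and 1.14 and 0.879 TPM in Kdm3b+/- mice. Rbp2, known from intestine, was listed at 0 in 3 libraries and at 0.491 TPM in Kdm3b+/- mouse 2.

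None of the other listed genes that supply, bind or answer to fatty acids was called in the limma fit of log2(TPM + 1). With DESeq2 on the same libraries, the paper did name Angptl4 and Slc27a1 among its lower genes. It related those genes mostly to lipid metabolism, and it named Fabp5 among its differentially expressed genes. Outside the 3 genes, 93 genes of lipid handling and of the Notch pathway were listed, 71 were tested and 0 were called, against 0.461% of all genes. At a mean of at least 5 TPM, limma called 2 of them, Ucp2 among them, and robust eBayes called 1. An unadjusted p under 0.05 was found for 21 of the 71, 2 of them with a higher level, against 2318 of all 13652 genes. Both Kdm3b+/- mice lay above both WT mice for 11 of the 71, against 19.2% of all genes, and below both for 32 of the 71, against 32%. The median log2 difference was -0.18, against -0.07 over all genes. In the length groups of all tested genes from 2556 to 4988 bases the median lay between -0.15 and -0.21. No list was compared with genes of its own transcript length, so a difference from all genes may also run with length.

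Of the genes for fatty acid uptake and activation, 11 of 15 were tested, none was called, and the median log2 difference was -0.08. Slc27a1, a fatty acid transporter of the plasma membrane, was listed at 141 and 182 TPM in WT and 97.7 and 97.2 TPM in Kdm3b+/- mice (log2 difference -0.71, SE 0.15, adjusted p = 0.105). Acsbg1, an acyl-CoA synthetase, was listed at 269 and 265 TPM in WT and 169 and 216 TPM in Kdm3b+/- mice (-0.48, SE 0.15). For both of these the Kdm3b+/- mice lay below the WT mice, the opposite order to the binding proteins. Their transcripts, of 2795 and 2880 bases, are also longer than those of the 3 binding proteins. At the other end, Slc27a3 had a log2 difference of 0.21 (SE 0.20) and Acsl4, a synthetase for arachidonic acid, one of -0.02 (SE 0.18).

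The acyl-CoA binding proteins carry the activated form of fatty acids, and all 6 were tested. Dbi, the most abundant, was listed at 844 and 656 TPM in WT and 889 and 966 TPM in Kdm3b+/- mice (0.32, SE 0.14), so that the groups did not overlap, but the WT mice differed by more than the group means. Acbd6 had a log2 difference of 0.47 (SE 0.23), Acbd7 one of -0.56 (SE 0.26) and Acbd5 one of -0.37 (SE 0.14), and none was called. Dbi, with 569 bases, also belongs to that shortest group.

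Of the PPAR, RXR and RAR receptors, to which lipid binding proteins can pass their ligands, 6 of 9 were tested and none was called. Ppara and Ppard were below the minimum, with means of 0.607 and 0.518 TPM, and Pparg was listed at 2.78 and 3.35 TPM in WT and 2.89 and 2.27 TPM in Kdm3b+/- mice. Rxra, the common partner of these receptors, was listed at 4.14 and 3.4 TPM in WT and 2.06 and 2.23 TPM in Kdm3b+/- mice (-0.60, SE 0.19), and Rxrb had a log2 difference of -0.36 (SE 0.14). Rarb and Rxrg lay at 0.27 (SE 0.18) and 0.23 (SE 0.22).

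PPAR target genes had the lowest median of these lists. All 15 were tested, 0 were called, the median log2 difference was -0.44 against -0.07 over all genes, and both Kdm3b+/- mice lay below both WT mice for 10 of them, against 32% of all genes. At an unadjusted p under 0.05 there were 9 of the 15, of which 1 was higher. Angptl4, a secreted inhibitor of lipoprotein lipase, was listed at 9.20 and 4.29 TPM in WT and 1.87 and 1.80 TPM in Kdm3b+/- mice (-1.37, SE 0.28, adjusted p = 0.0997). Acot1, a thioesterase that frees fatty acids from CoA, lay the other way, with 17.6 and 13.7 TPM in WT and 23.4 and 26.1 TPM in Kdm3b+/- mice (0.64, SE 0.17, adjusted p = 0.154). The second highest was Acadm, an enzyme of beta oxidation, at 0.07 (SE 0.15).

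The listed elongases and desaturases of fatty acids include those that make polyunsaturated ones. All 8 were tested with a median of 0.05, none was called, and 1 had an unadjusted p under 0.05. Elovl2, which elongates the precursors of docosahexaenoic acid, was listed at 14.7 and 12.8 TPM in WT and 8.99 and 8.47 TPM in Kdm3b+/- mice (-0.60, SE 0.16, adjusted p = 0.154), and the next lowest was Scd2 at -0.08 (SE 0.16). Fads2 and Elovl5 were the highest, at 0.23 (SE 0.16) and 0.10 (SE 0.14).

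Fatty acid binding proteins also carry endocannabinoids, which are lipid signals made from polyunsaturated fatty acids. Of 12 genes listed for them 11 were tested, with a median of -0.20 and no call. Abhd4, an enzyme of anandamide synthesis, was listed at 163 and 153 TPM in WT and 89.0 and 110 TPM in Kdm3b+/- mice (-0.67, SE 0.15, adjusted p = 0.107), and Faah, which breaks anandamide down, had a log2 difference of -0.28 (SE 0.16). Mgll, which breaks down 2-arachidonoylglycerol, was listed at 144 and 158 TPM in WT and 195 and 189 TPM in Kdm3b+/- mice (0.35, SE 0.13), and the receptor gene Cnr1 lay at 0.13 (SE 0.16).

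The Notch pathway is listed because Fabp7 is a known target of Notch signalling in radial glia. Of 16 genes 13 were tested, with a median of -0.15 and no call. Hes5, a transcriptional repressor induced by Notch, was listed at 4.13 and 5.74 TPM in WT and 8.25 and 5.86 TPM in Kdm3b+/- mice (0.44, SE 0.21), where the higher WT mouse and the lower Kdm3b+/- mouse were nearly equal, and the coactivator Maml1 lay at 0.29 (SE 0.20). Dner, a Notch ligand of Purkinje cells, was listed at 113 and 91.4 TPM in WT and 64.6 and 61.2 TPM in Kdm3b+/- mice (-0.69, SE 0.15, adjusted p = 0.107), and Dtx1 lay at -0.64 (SE 0.19).

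**Figure D4:**
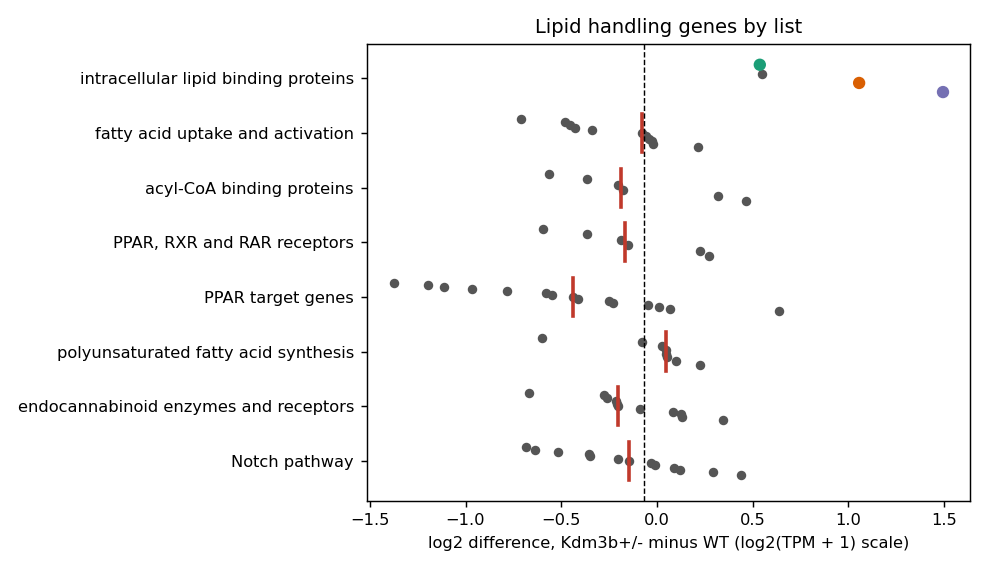
Log2 difference between genotypes (horizontal axis, Kdm3b+/- minus WT, log2(TPM + 1) scale) of each tested gene of the 8 lists, 1 row per list. Grey dots are single genes, coloured dots are Fabp3 (green), Fabp5 (orange) and Fabp7 (violet), red bars are list medians without those 3 genes and the dashed line is the median of all genes at -0.07; the PPAR target genes have the lowest median, at -0.44.

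These are bulk samples, so a different share of a cell type and a different amount of RNA per cell cannot be told apart. Fabp7 marks astrocytes and Bergmann glia, and the 17 other markers of these cells were all tested. Their summed level was 3641 and 3311 TPM in WT and 2698 and 2960 TPM in Kdm3b+/- mice. Without the most abundant of them, Ndrg2, a choice made after seeing the data, the other 16 summed to 1984 and 1849 TPM in WT and 1778 and 2002 TPM in Kdm3b+/- mice, which overlap. Aqp4, the water channel of astrocyte end-feet, was called higher (1.10, SE 0.17, adjusted p = 0.0329), Ndrg2 was called lower (-0.73, SE 0.12, adjusted p = 0.0381), and both Kdm3b+/- mice lay above both WT mice for 5 markers, against 19.2% of all genes, and below for 8, against 32%. An unadjusted p under 0.05 in the limma fit was found for 10 of the 17 markers, 4 of them higher, against 17.0% of all genes. The median log2 difference was -0.11. That median was 0.15 without Kdm3b+/- mouse 1 and -0.40 without Kdm3b+/- mouse 2. The most abundant of these markers were Ndrg2, the calcium-binding S100b and the connexin Gja1. Ndrg2 was listed at 1658 and 1462 TPM in WT and 919.9 and 958 TPM in Kdm3b+/- mice. S100b was listed at 412 and 322 TPM in WT and 275 and 412 TPM in Kdm3b+/- mice, and Gja1 at 245 and 270 TPM in WT and 236 and 230 TPM in Kdm3b+/- mice. Per 1000 TPM of the summed markers, Fabp7 stood at 4.53 and 4.88 TPM in WT and 15.0 and 19.1 TPM in Kdm3b+/- mice, and without Ndrg2 in the sum at 8.32 and 8.75 TPM in WT and 22.8 and 28.2 TPM in Kdm3b+/- mice.

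Markers of the other cells of the tissue were set beside the 3 genes in the same way. The 9 granule cell markers summed to 5164 and 6049 TPM in WT and 5414 and 5907 TPM in Kdm3b+/- mice, and per 1000 TPM of them Fabp3 stood at 52.1 and 45.6 TPM in WT and 79.1 and 62.0 TPM in Kdm3b+/- mice. None of these 9 was called, and 3 had an unadjusted p under 0.05, 2 of them higher, against 17.0% of all genes. The 10 oligodendrocyte markers summed to 17657 and 16151 TPM in WT and 14994 and 17937 TPM in Kdm3b+/- mice, and their median log2 difference was 0.06, with a higher Kdm3b+/- mean for 6 of 10. Of these markers Mobp was called, with a lower level (-0.93, SE 0.11, adjusted p = 0.0133), while Opalin (0.69, SE 0.17) and Ugt8a (0.72, SE 0.19) were above both WT mice in both Kdm3b+/- mice and were not called. These 3 were the oligodendrocyte markers with an unadjusted p under 0.05. The Purkinje cell markers stood apart in 1 library. Their sum was 1620 TPM in WT mouse 1, against 709 TPM in WT mouse 2 and 904 and 731 TPM in the Kdm3b+/- mice, with 0 of 10 called, 3 at an unadjusted p under 0.05, a median of -0.50 and a lower Kdm3b+/- mean for all 10. Fabp5 was also higher in WT mouse 1 than in WT mouse 2, and its log2 difference was 1.30 without WT mouse 1 and 0.81 without WT mouse 2. The part of these cells in the level of Fabp5 was not tested.

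Smaller populations were likewise compared. The oligodendrocyte precursor, microglia, endothelial, and mural and meningeal lists had no call, and their sums overlapped between genotypes except for microglia, with 278 and 282 TPM in WT and 290 and 308 TPM in Kdm3b+/- mice. An unadjusted p under 0.05 in the limma fit was found for 0 of 6, 1 of 8, 1 of 6 and 4 of 6 tested genes of these lists. Of the 4 mural and meningeal genes 2 were higher. The share over all genes was 17.0%. Inhibitory interneuron markers summed to 471 and 215 TPM in WT and 285 and 261 TPM in Kdm3b+/- mice, with 0 of 5 tested genes called. Of these 5 genes 3 had an unadjusted p under 0.05, 1 of them with a higher level. Choroid plexus and ependyma markers summed to between 1.42 and 4.68 TPM in a library, and adipocyte markers to between 0.170 and 1.63 TPM with Adipoq at 0 in all libraries. Fabp4 and Fabp5 are both found in fat tissue, and the defining fat marker was thus not detected.

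No neighbour of the 3 genes was called, against 0.461% of all genes, a share at which 21 genes would usually hold no call. An unadjusted p under 0.05 in the limma fit was found for 2 of the 21, against 17.0% of all genes. Within 500 kb, 12 tested genes lay around Fabp3, 4 around Fabp5 and 5 around Fabp7, with median log2 differences of 0.04, 0.10 and 0.06. The nearest tested genes of Fabp3 were Serinc2 (0.12, SE 0.16) and Zcchc17, whose transcript lies on the opposite strand and was listed at 350 and 295 TPM in WT and 372 and 366 TPM in Kdm3b+/- mice (0.20, SE 0.13). Next to Fabp5 were Pag1 (0.20, SE 0.18) and Impa1 (-0.43, SE 0.17), and the genes Pmp2, Fabp9, Fabp4 and Fabp12, which lie between 167 and 232 kb from Fabp5 as a cluster of the same family, were at or near 0 as given above. Fabp7 was flanked by Pkib (0.17, SE 0.15) and by Smpdl3a (0.06, SE 0.17), which starts 9.62 kb away and was listed at 45.0 and 33.4 TPM in WT and 37.8 and 43.3 TPM in Kdm3b+/- mice.

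The RefSeq promoter table of GRCm38.p6 matched 2 of the 3 genes, Fabp3 and Fabp7, and held no entry for Fabp5. Their sequence upstream of the GENCODE transcript start is shown because each of them had a higher level in both Kdm3b+/- mice. Both strands were searched for 6 motifs from 250 bases before to 50 bases after the RefSeq start. Both are on the forward strand, and capitals mark matches to the CCAAT box.
Fabp3, chr4:130308488-130308594: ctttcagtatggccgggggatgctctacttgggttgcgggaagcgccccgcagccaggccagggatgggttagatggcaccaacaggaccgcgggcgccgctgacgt
Fabp7, chr10:57784673-57784880: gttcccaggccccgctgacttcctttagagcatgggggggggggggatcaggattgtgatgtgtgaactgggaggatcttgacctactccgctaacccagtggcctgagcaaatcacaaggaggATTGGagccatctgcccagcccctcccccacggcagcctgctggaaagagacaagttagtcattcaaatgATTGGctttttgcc
Fabp7 held the letters CCAAT, read on the reverse strand, at -126 and -56 from the RefSeq start, and Fabp3 held none. This box was found in 37.4% of 32851 promoters. Neither gene held the TATA box TATAAA (13.6% of promoters), the GC box GGGCGG (35.7%), the RBPJ motif GTGGGAA (6.38%), the octamer ATGCAAAT (1.74%) or the PPAR response element (0.0396%), a direct repeat of AGGTCA with 1 base between the copies, in this window. The upstream sequence printed had a GC content of 66.4% for Fabp3 and 56.2% for Fabp7.

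The genes with the most similar pattern over the 4 libraries were found by the distance between centred log2(TPM + 1) values, for the 5 closest genes each. For Fabp3 they were Rnaseh2c, Plcxd3, Snrpd3, Dynll1 and 4933413L06Rik, at distances from 0.0219 to 0.04997. Rnaseh2c, a subunit of ribonuclease H, was listed at 61.1 and 61.5 TPM in WT and 97.6 and 82.5 TPM in Kdm3b+/- mice, with the same order of mice as Fabp3. Fabp5 lay closest to H4c12, a histone gene, and then to Gng11, Rps4l, S100a10 and Cpxm2, at distances from 0.113 to 0.270. Gng11, a G protein subunit, was listed at 62.1 and 49.6 TPM in WT and 95.3 and 114 TPM in Kdm3b+/- mice. The genes closest to Fabp7 lay further from it, with Ywhaz at 0.268, followed by Snora34, Ninj2 and Vps26a, and with Fabp5 as the fifth at 0.566. Fabp7 ranked 12 by log2 difference, so few genes could lie near it. Ywhaz, a 14-3-3 protein, was listed at 294 and 285 TPM in WT and 611 and 772 TPM in Kdm3b+/- mice. Between the 3 genes the distances were 0.57 for Fabp5 and Fabp7, 0.72 for Fabp3 and Fabp5 and 1.08 for Fabp3 and Fabp7. All of these distances include the difference between genotypes, on which the 3 genes were selected. Nothing is therefore read from their order.

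The size of the log2 difference depended on the processing in each gene. Over the 16 other settings it ranged from 0.25 to 0.65 for Fabp3, from 0.78 to 1.30 for Fabp5 and from 1.2 to 1.73 for Fabp7. The lowest value of each gene came from the correction for length and GC content. As the groups do not overlap for these genes, the direction without any 1 mouse is fixed by the values above.

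**Figure D5:**
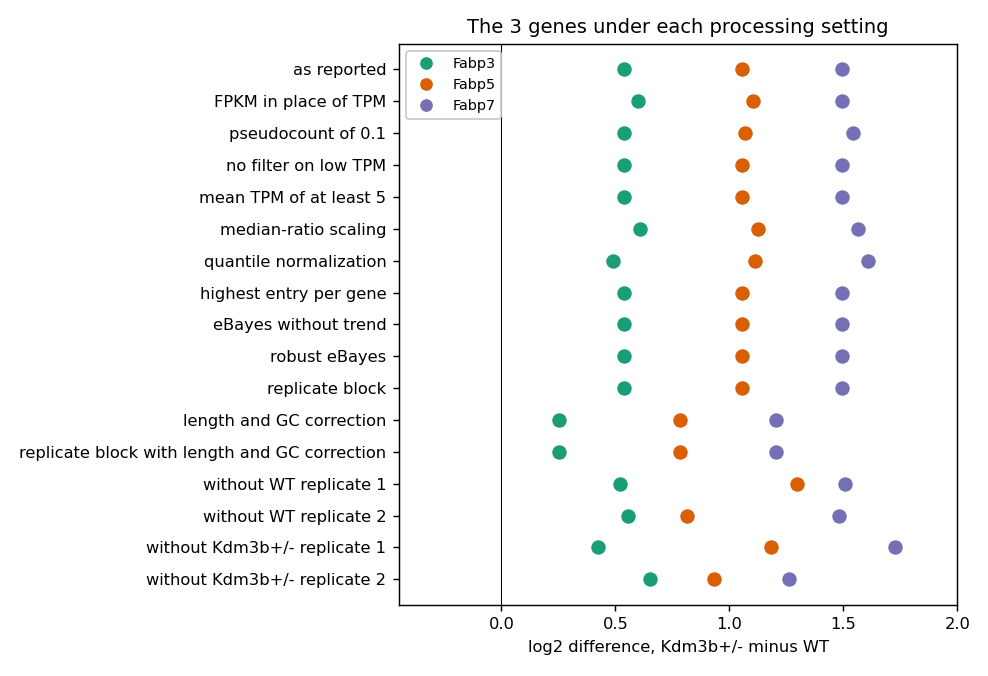
Log2 difference between genotypes (horizontal axis, Kdm3b+/- minus WT) of Fabp3 (green), Fabp5 (orange) and Fabp7 (violet) under the reported fit and 16 other settings, 1 row per setting. The lowest point of each gene is the one after correction for length and GC content, at 0.25, 0.78 and 1.2.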

How the data were processed

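The authors trimmed low-quality bases, aligned reads with STAR and estimated abundances with StringTie; versions, genome build and annotation are not given in the sources used here. They deposited 1 table per library with coverage (mean read depth over exons), FPKM (scaled by the authors to length and mapped fragments) and TPM (scaled by the authors to length and library total). Of the identifiers, 99.6% lay on the RefSeq GRCm38.p6 chromosome. Gene symbols were found for 24462 of 24532, and entries of the 220 repeated identifiers were summed. The files hold no counts, so the count test of the study's methods was not repeated.

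Samples were grouped by genotype from the labels. Genes averaging at least 1 TPM were tested as log2(TPM + 1) with limma 3.58.1 (eBayes with trend, Benjamini-Hochberg over 13652 genes) in R 4.3.3. Every adjusted p comes from this fit, which was tested on simulated data. A two-sided exact permutation test of 2 mice against 2 cannot go below p = 0.333. Transcript lengths and sequences came from GENCODE transcripts of GRCm38, for 99.2% of tested genes. Figures and tables used Python 3.11.15, NumPy 2.4.6, pandas 2.3.3 and Matplotlib 3.10.9, and robust fits statmod 1.5.0.

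The 3 genes and all lists were chosen with earlier results of these data known. Named genes are the 3 genes, the other family members, in each list the called genes or otherwise the 2 highest and 2 lowest log2 differences, the nearest tested neighbours, the 5 most similar genes, and of a described marker list the 3 of highest level. Kdm3b, Dbi, Ppara, Ppard, Pparg, Ucp2, Gabra6, Mbp, Adipoq, Mobp, Opalin and Ugt8a were added after their values were seen. The results of 2 listed genes are counted with their lists and are not reported here by themselves.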

Additional observations from a re-analysis of the deposited data

How the results depend on the processing

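With 2 mice per genotype the spread of each gene rests largely on the spread shared across genes. In the fits without 1 mouse, the lone mouse left in a group is assumed to vary like the others. Depth per gene is known only as mean coverage, so no counting interval can be given.

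With the correction for length and GC content, with or without the replicate block, the log2 differences of Fabp3, Fabp5 and Fabp7 moved to 0.25, 0.78 and 1.2. Without 1 mouse the differences ranged from 0.42 to 0.65 for Fabp3, 0.81 to 1.30 for Fabp5 and 1.26 to 1.73 for Fabp7. The 63 called genes became 38 with FPKM in place of TPM, 1 without a filter on low TPM, 37 with eBayes without trend, and between 21 and 188 without 1 mouse (21 without WT mouse 1, 28 without WT mouse 2, 121 without Kdm3b+/- mouse 1 and 188 without Kdm3b+/- mouse 2). Calls in the lipid lists, 0 as reported, were 2 at a mean TPM of at least 5 (Ucp2 among them), 1 with robust eBayes, and 0 to 4 without 1 mouse (Abhd4, Angptl4 and Ucp2 among them). The astrocyte and Bergmann glia median, -0.11, ranged from -0.40 to 0.15 without 1 mouse, the positive value being the one without Kdm3b+/- mouse 1, and was -0.10 without Ndrg2, which was tried after the data had been seen. The cause of these shifts was not tested.

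Replicate numbers are shared between genotypes but mark different animals. Over genes, the deviations of WT mouse 1 and Kdm3b+/- mouse 1 from their group means correlated at 0.12. After correction for length and GC content this was 0.0093. With 2 mice per group the other pair gives the same value, so this is a single comparison. With the replicate block 600 genes were called, 10 of them in the lipid lists, and with the block and that correction 161 and 2 (Angptl4 and Pdk4).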
